A study of Homo sapiens with 17 samples.

Results

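The 40 mitotic G2/M genes are cell cycle genes whose products carry a cell from the end of DNA replication through chromosome segregation and cytokinesis, and they were followed here in MOLM13 cells after loss of HOXA9, SAFB or MEIS1. Members were given as a list of gene symbols, and all 40 were found among the 58278 gene identifiers of the count files. MOLM13, a long-used line from an acute myeloid leukaemia, expresses the fusion protein MLL-AF9, and every group shares this background. In a first experiment, total RNA was sequenced from cells with a CRISPR knockout of HOXA9 (HOXA9_KO, 3 libraries), a CRISPR knockout of SAFB (SAFB_KO, 3 libraries) or a non-targeting guide (NT, 3 libraries). A separate experiment held cells with a CRISPR knockout of MEIS1 (MEIS1_KO, 4 libraries) and its own non-targeting guide (NT_MEIS1ex, 4 libraries). HOXA9 and its partner MEIS1 encode homeodomain transcription factors active in MLL-rearranged leukaemia, and SAFB encodes a nuclear scaffold protein that binds DNA and RNA. The labels give neither the time after guide delivery, nor whether cells were pooled or clonal, nor whether replicate libraries are separate cultures, so p-values measure only the spread between these samples, which may be technical.

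Entry into mitosis is driven by CDK1 bound to cyclin B, a pair that CDC25 phosphatases activate; cyclin B is destroyed once the spindle checkpoint releases the anaphase-promoting complex (APC/C). In proliferating cells the genes of this machinery are transcribed together late in the cycle. In quiescent or arrested cells they are held down together by the DREAM complex, in which the MuvB core subunit LIN54 binds the CHR element of promoters, and they are activated by MuvB with MYBL2 and FOXM1. The factor NF-Y binds CCAAT boxes in many of the same promoters. In bulk RNA, fewer cells in G2 and mitosis and less RNA of these genes per cell cannot be told apart.

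Libraries held 23264176 to 67842104 counts in genes. Levels are CPM, a gene's counts relative to the size of its library, scaled within each experiment by TMM, a factor that makes the bulk of genes comparable. A change is a log2 fold change ± SE from edgeR's quasi-likelihood test. Intervals given as 95% take this SE with the normal distribution, which can make them too narrow with so few libraries. A gene was called when its p-value was under 0.05 after Benjamini-Hochberg adjustment across every gene tested. All 8 myeloid marker genes averaged above 1 CPM in every group, with sums of 29441 to 32396 CPM in HOXA9_KO, 13401 to 15107 in SAFB_KO and 5452 to 5573 in NT, and of 7847 to 8158 in MEIS1_KO and 4301 to 5889 in NT_MEIS1ex. LYZ carried most of each sum: without it the sums were 1376 to 1411 CPM in HOXA9_KO, 1311 to 1349.5 in SAFB_KO and 1353 to 1385 in NT, and 1339 to 1431 in MEIS1_KO and 1305 to 1355 in NT_MEIS1ex. Of the 8 markers, 7 were called higher and FLT3 lower in HOXA9_KO, 5 higher and FLT3 and MPO lower in SAFB_KO, and 4 higher and none lower in MEIS1_KO. Of all tested genes, 27.6% were called higher and 29.9% lower in HOXA9_KO, 20.2% and 15.3% in SAFB_KO, and 4.97% and 3.84% in MEIS1_KO. The part of these markers in the results was not tested. The 7 lymphoid markers summed to at most 4.43 CPM (CD3E at 0 in NT and NT_MEIS1ex; CD3E, PAX5 and CD8A at 0 in HOXA9_KO; MS4A1 at 0 in NT_MEIS1ex), and the 7 erythroid and megakaryocyte markers to at most 0.825 CPM, with PF4 and HBG1 at 0 in every group. HOXA9 lay at 21.9, 21.2 and 21.1 CPM in HOXA9_KO and 40.5, 42.0 and 40.1 CPM in NT, a change of -0.93. SAFB lay at 22.2, 20.4 and 19.4 CPM in SAFB_KO and 40.4, 33.6 and 40.9 CPM in NT, a change of -0.89. MEIS1 lay between 10.3 and 12.8 CPM in the 4 MEIS1_KO libraries and between 31.7 and 33.4 CPM in the 4 NT_MEIS1ex libraries, a change of -1.54. Each targeted gene was lower in all libraries of its own knockout; the labels do not say how the guides acted, and gene counts do not tell how much intact protein was left. MEIS1 also fell by 1.54 in HOXA9_KO and by 0.31 in SAFB_KO. Mitochondrial rRNA took 31.9 to 35.5% of counts in HOXA9_KO, 24.9 to 27.0% in SAFB_KO and 22.5 to 28.4% in NT, against at most 0.0094% in the MEIS1 experiment, and its part in the results was likewise not tested beyond the scaling given further on.

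Of the members with a promoter window, those with the smallest HOXA9_KO p-values are shown because the members moved together and because CHR and CCAAT words are what these promoters are known for. They are RefSeq windows on GRCh38.p14, each running 250 bases before to 50 bases after the annotated start in the direction of the gene. They lie at chr17:40417847-40418146 (TOP2A, minus strand), chr15:41332631-41332930 (NUSAP1, plus strand), chr10:92592880-92593179 (KIF11, plus strand), chr10:60778081-60778380 (CDK1, plus strand), chr4:121823834-121824133 (CCNA2, minus strand) and chr4:103198294-103198593 (CENPE, minus strand). Capitals mark TTTGAA and CCAAT on either strand, so the same words read TTCAAA and ATTGG on the other strand.
TOP2A: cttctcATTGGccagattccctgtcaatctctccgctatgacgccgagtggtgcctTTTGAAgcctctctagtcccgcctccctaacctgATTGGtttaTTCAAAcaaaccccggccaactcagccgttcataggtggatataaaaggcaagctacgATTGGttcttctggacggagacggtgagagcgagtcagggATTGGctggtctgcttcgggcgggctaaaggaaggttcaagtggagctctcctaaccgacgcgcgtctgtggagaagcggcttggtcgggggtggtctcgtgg
NUSAP1: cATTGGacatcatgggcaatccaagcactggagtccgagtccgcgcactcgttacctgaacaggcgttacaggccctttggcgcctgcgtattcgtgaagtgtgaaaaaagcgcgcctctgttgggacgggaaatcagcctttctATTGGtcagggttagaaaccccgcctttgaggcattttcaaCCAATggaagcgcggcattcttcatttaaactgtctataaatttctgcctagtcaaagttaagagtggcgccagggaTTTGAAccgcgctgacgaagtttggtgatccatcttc
KIF11: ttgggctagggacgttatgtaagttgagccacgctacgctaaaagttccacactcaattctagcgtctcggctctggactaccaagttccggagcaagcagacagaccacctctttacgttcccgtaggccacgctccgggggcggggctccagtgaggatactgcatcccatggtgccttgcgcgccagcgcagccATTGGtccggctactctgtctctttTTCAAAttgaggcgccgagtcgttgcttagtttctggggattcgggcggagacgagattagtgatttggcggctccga
CDK1: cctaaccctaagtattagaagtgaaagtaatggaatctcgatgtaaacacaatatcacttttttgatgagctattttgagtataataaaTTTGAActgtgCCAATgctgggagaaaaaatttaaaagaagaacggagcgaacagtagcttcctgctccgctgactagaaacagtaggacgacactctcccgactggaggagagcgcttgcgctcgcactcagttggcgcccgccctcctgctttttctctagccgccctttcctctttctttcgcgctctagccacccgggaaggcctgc
CCNA2: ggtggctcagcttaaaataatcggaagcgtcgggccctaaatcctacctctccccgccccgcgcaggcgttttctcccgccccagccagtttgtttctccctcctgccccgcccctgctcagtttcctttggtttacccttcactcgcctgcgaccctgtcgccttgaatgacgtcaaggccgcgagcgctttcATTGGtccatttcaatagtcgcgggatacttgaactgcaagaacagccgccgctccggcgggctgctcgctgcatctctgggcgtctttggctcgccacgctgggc
CENPE: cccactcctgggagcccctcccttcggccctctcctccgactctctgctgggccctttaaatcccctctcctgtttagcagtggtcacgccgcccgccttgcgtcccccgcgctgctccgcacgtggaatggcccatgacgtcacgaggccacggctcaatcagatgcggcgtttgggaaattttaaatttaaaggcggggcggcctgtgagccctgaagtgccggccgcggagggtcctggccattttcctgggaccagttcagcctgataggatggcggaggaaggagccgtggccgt
TOP2A held 4 CCAAT and 2 TTTGAA matches, NUSAP1 3 and 1, KIF11 and CDK1 1 of each, and CCNA2 1 CCAAT match alone. The CENPE window held neither word. For CENPE and for the CHR word in CCNA2, this says only that these exact letters are absent from the stretch. Forms of the CHR word other than TTTGAA and TTCGAA were not searched.

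Among all members, 33 had a window in the RefSeq table; TTK, TPX2, BUB3, UBE2C, BIRC5, AURKA and FOXM1 had none. The CHR word, searched as TTTGAA or TTCGAA on both strands, was present in 24 of 33 members (72.7%), against 16.6% of 27305 promoters of all genes and 11.9% of the 11465 promoters of tested genes. With its centre within 50 bases of the start it was present in 19 of 33 members (57.6%), against 5.15% of all promoters. CCAAT was present in 25 of 33 members (75.8%), against 35.7% of all promoters, and at least 2 copies in 14 (42.4%), against 11.3%. Both words, with the CHR word near the start, were present in 16 of 33 members (48.5%), against 2.07% of all promoters. The E2F-type words GCGGGAAA and TTTGGCGC were present in 1 of 33 members each (3.03%), against 1.66% and 0.659% of all promoters. Words of this length are rare in any promoter, so counts this small cannot tell whether members differ from other genes. TTTGAA or TTCGAA can share at most 1 base with CCAAT, matches are a description of letters and not of binding, and the words were searched knowing that such genes are described by them.

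In HOXA9_KO, mitotic G2/M genes fell in every role. Relative to NT, 39 of 40 members were called lower and none higher, where 29.9% of the 18876 tested genes were called lower and 27.6% higher, and the median log2 change of the members was -0.95, a fall of 48.2%, beside -0.07 over all genes. Of the 40, 36 were called lower by at least 0.5 and 15 by at least 1, where 19.3% and 10.4% of tested genes were. Summed over the 40 members, levels were 1853, 1879 and 1916 CPM in HOXA9_KO, 3056, 2987 and 3000 CPM in SAFB_KO, and 3636, 3510 and 3417 CPM in NT. For 39 members every HOXA9_KO library lay below every NT library, which held for 33.5% of tested genes; AURKA was the exception.

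**Figure D1:**
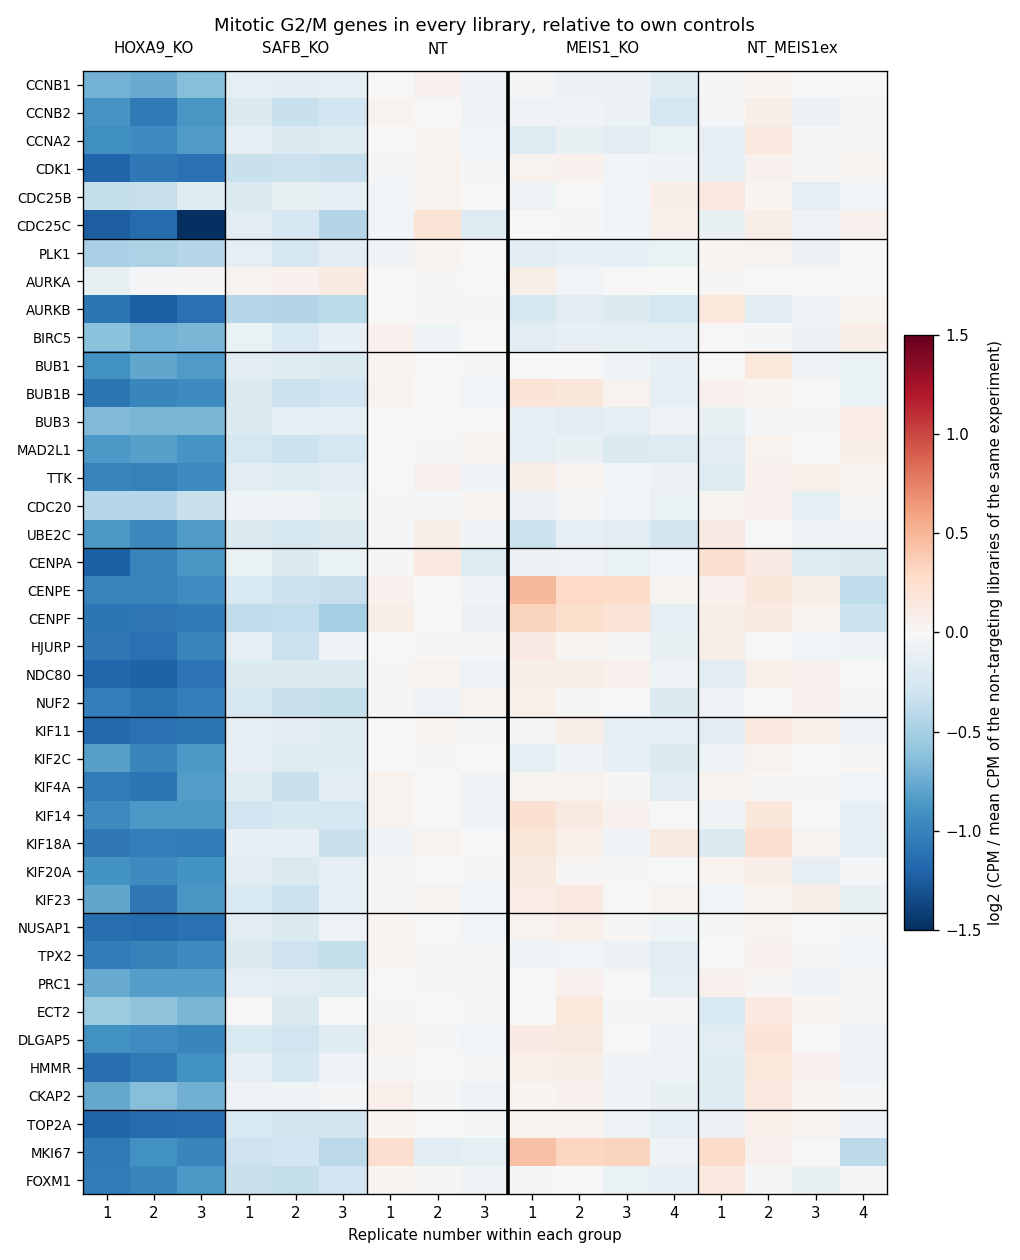
Each row is a member, grouped by role in the order of the text, and each column a library; colour gives log2 of the CPM over the mean CPM of the non-targeting libraries of the same experiment, which are NT for the columns left of the thick line and NT_MEIS1ex for those right of it. The 3 HOXA9_KO columns are blue in every row but AURKA. Most SAFB_KO cells are pale blue, with AURKA above its controls, and MEIS1_KO cells are pale in both directions, with changes of -0.22 for AURKB and UBE2C and 0.29 for CENPE.

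Cyclins, CDK1 and the CDC25 phosphatases form the switch for mitotic entry, and all 6 fell in HOXA9_KO, with a median of -0.92. CDK1 (ENSG00000170312.15, GRCh38 chromosome 10, 60778331 to 60794852, plus strand), the kinase itself, lay at 34.5, 37.6 and 36.3 CPM in HOXA9_KO, 62.8, 63.3 and 62.5 CPM in SAFB_KO and 77.9, 81.9 and 77.6 CPM in NT. In the MEIS1 experiment it lay at 53.3, 53.6, 49.8 and 49.1 CPM in MEIS1_KO and 47.1, 53.7, 52.1 and 52.7 CPM in NT_MEIS1ex. The 3 groups of the first experiment did not overlap, with HOXA9_KO lowest and SAFB_KO between it and NT, whereas MEIS1_KO and its controls overlapped. CDK1 was lower by 1.13 ± 0.045 in HOXA9_KO (edgeR adjusted p 3.32e-27) and by 0.33 ± 0.043 in SAFB_KO (edgeR adjusted p 1.17e-08). Its MEIS1_KO change was 0.00 ± 0.057 (edgeR adjusted p 0.987). The cyclins CCNB1, CCNB2 and CCNA2 fell by 0.70, 0.94 and 0.90 in HOXA9_KO. The phosphatases that activate CDK1 had the largest and the smallest fall of this group. CDC25C, the member with the largest fall of all, had 5.30, 5.63 and 4.16 CPM in HOXA9_KO and 12.2, 14.4 and 10.9 CPM in NT, a change of -1.32 ± 0.11. CDC25B had 24.6, 24.8 and 27.8 CPM in HOXA9_KO and 30.6, 32.5 and 31.4 CPM in NT, a change of -0.29 ± 0.059 (edgeR adjusted p 3.56e-05).

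PLK1, the Aurora kinases and survivin phosphorylate or target spindle and centromere proteins, and 3 of these 4 members fell in HOXA9_KO, with a median of -0.57. AURKB (ENSG00000178999.12, chromosome 17, 8204733 to 8210600, minus strand), the kinase of the chromosomal passenger complex, lay at 12.5, 11.4 and 12.2 CPM in HOXA9_KO, 19.8, 19.7 and 20.1 CPM in SAFB_KO and 26.5, 27.0 and 26.4 CPM in NT. It lay at 34.2, 35.9, 35.3 and 33.8 CPM in MEIS1_KO and 45.3, 36.2, 38.9 and 41.6 CPM in NT_MEIS1ex. None of the 3 knockouts overlapped its controls, and AURKB and UBE2C were the only members called lower in all 3. AURKB fell by 1.14 ± 0.067 in HOXA9_KO, 0.42 ± 0.063 in SAFB_KO and 0.22 ± 0.066 in MEIS1_KO (edgeR adjusted p 1.85e-20, 2.84e-07 and 0.0465). BIRC5, which encodes survivin, a partner of AURKB in that complex, fell by 0.67 in HOXA9_KO, and PLK1, a kinase of centrosomes and kinetochores, by 0.46.

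AURKA (ENSG00000087586.17, chromosome 20, 56369389 to 56392337, minus strand), the paralogue of AURKB that acts at centrosomes and spindle poles, was the member without a called change. It lay at 54.5, 57.8 and 59.5 CPM in HOXA9_KO, 60.9, 61.6 and 64.2 CPM in SAFB_KO and 58.3, 59.4 and 58.5 CPM in NT. The HOXA9_KO libraries spanned the NT libraries, and the SAFB_KO libraries were all above them. Its change was -0.03 ± 0.044 in HOXA9_KO (95% interval -0.12 to 0.05, edgeR adjusted p 0.524), 0.08 ± 0.044 in SAFB_KO (edgeR adjusted p 0.135) and 0.01 ± 0.049 in MEIS1_KO (edgeR adjusted p 0.912). When libraries were scaled to nuclear protein-coding counts in place of TMM, AURKA was called lower in HOXA9_KO, at -0.29 (edgeR adjusted p 2.51e-07), and 40 of 40 members were. TPX2, which activates and localises the AURKA protein, fell by 1.002 in HOXA9_KO. The annotation lists 2 pseudogenes named after AURKA, and their part in its counts was not tested.

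**Figure D2:**
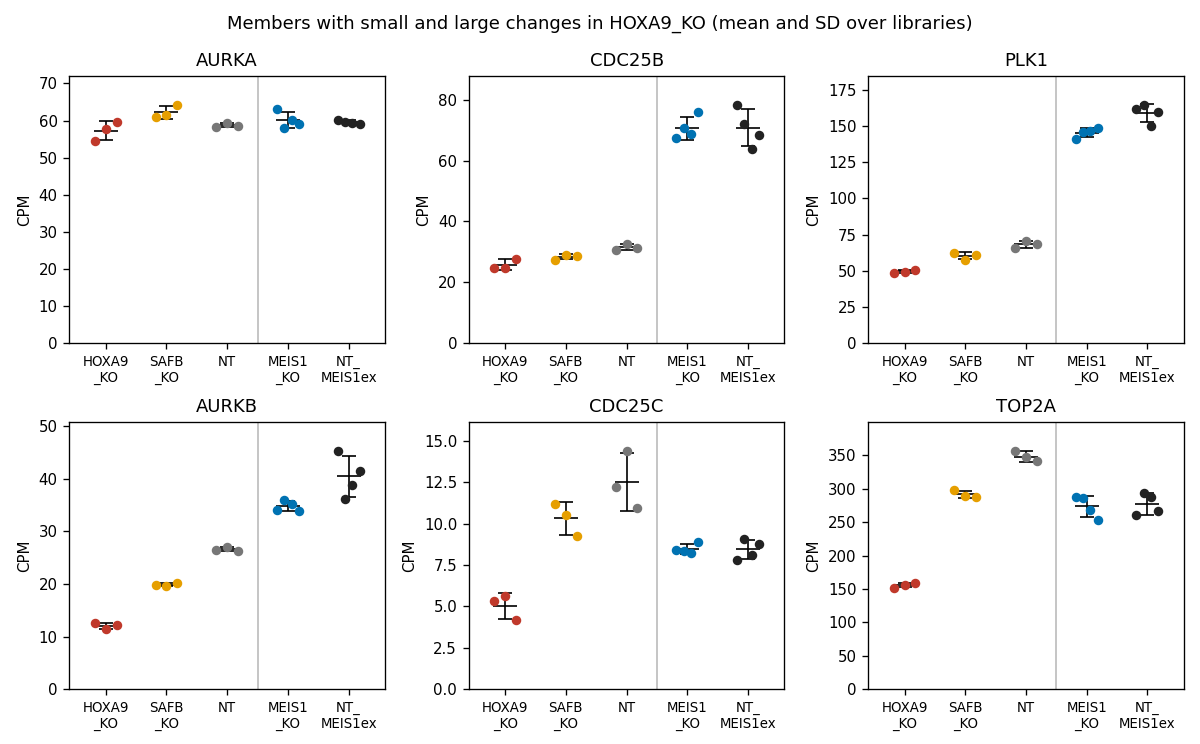
Points are CPM per library, the horizontal mark is the group mean and the bars are the SD; the y axes start at 0, and groups of the first experiment stand left of the grey line. AURKA, CDC25B and PLK1 in the upper row had the smaller changes in HOXA9_KO (-0.03, -0.29 and -0.46 on the log2 scale), while AURKB, CDC25C and TOP2A in the lower row fell by 1.14, 1.32 and 1.16.

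Spindle checkpoint genes, which hold the APC/C back until chromosomes are attached, and the genes of APC/C activity all fell in HOXA9_KO, 7 of 7 with a median of -0.85. BUB1B (ENSG00000156970.12, chromosome 15, 40161023 to 40221136, plus strand), which encodes the checkpoint protein BUBR1, lay at 37.1, 40.1 and 41.2 CPM in HOXA9_KO, 68.1, 63.1 and 64.6 CPM in SAFB_KO and 81.9, 78.5 and 76.7 CPM in NT. It lay at 66.0, 65.1, 60.1 and 52.2 CPM in MEIS1_KO and 60.7, 59.0, 57.6 and 54.3 CPM in NT_MEIS1ex. The first 3 groups did not overlap, and the MEIS1 groups did. BUB1B fell by 1.001 ± 0.046 in HOXA9_KO (edgeR adjusted p 1.29e-24), and 10.2% of its exon sequence is shared with the readthrough gene BUB1B-PAK6 on the same strand. The checkpoint kinases TTK and BUB1 fell by 0.98 and 0.84, and their partners MAD2L1 and BUB3 by 0.85 and 0.68. CDC20, the activator that the checkpoint restrains, fell least of the group, by 0.39, and lay at 49.4, 49.4 and 52.5 CPM in HOXA9_KO and 65.1, 65.5 and 68.2 CPM in NT. UBE2C, the ubiquitin-conjugating enzyme that works with the APC/C, fell by 0.89; 4 pseudogenes carry its name.

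Centromere and kinetochore genes had the lowest median of any role in HOXA9_KO, -1.05, with all 6 members lower by 0.98 to 1.17. CENPE (ENSG00000138778.11, chromosome 4, 103105806 to 103198409, minus strand), a kinesin that carries chromosomes to the spindle equator, lay at 44.6, 44.5 and 46.7 CPM in HOXA9_KO, 76.4, 71.3 and 70.4 CPM in SAFB_KO and 93.1, 89.4 and 85.5 CPM in NT. The 3 groups did not overlap. CENPE fell by 0.98 ± 0.044 in HOXA9_KO (edgeR adjusted p 3.98e-25) and by 0.30 ± 0.042 in SAFB_KO (edgeR adjusted p 8.66e-08). NDC80 and NUF2, which attach kinetochores to microtubules, fell by 1.17 and 1.05. CENPA, the histone H3 variant of centromeres, fell by 1.02, and its chaperone HJURP by 1.06. CENPF, a large kinetochore protein of G2 and mitosis, fell by 1.07.

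All 7 kinesins, the motors that build and shorten the spindle and its midzone, fell in HOXA9_KO within the narrow range of 0.88 to 1.13. KIF11 (ENSG00000138160.5, chromosome 10, 92593286 to 92655395, plus strand), the motor that pushes spindle poles apart, lay at 49.1, 50.6 and 51.3 CPM in HOXA9_KO, 100.1, 98.8 and 97.0 CPM in SAFB_KO and 109.6, 113 and 107 CPM in NT. It lay at 88.3, 93.3, 80.5 and 79.8 CPM in MEIS1_KO and 77.5, 96.8, 92.4 and 83.0 CPM in NT_MEIS1ex. HOXA9_KO was below every other library, SAFB_KO lay just below NT, and the MEIS1 groups overlapped. KIF11 fell by 1.13 ± 0.040 in HOXA9_KO (edgeR adjusted p 1.34e-29) and by 0.16 ± 0.038 in SAFB_KO (edgeR adjusted p 0.000739). KIF18A, which dampens chromosome movement, fell by 1.04, and the chromokinesin KIF4A by 0.99. The midzone motors KIF20A and KIF23 fell by 0.92 and 0.90, the cytokinesis motor KIF14 by 0.89 and the microtubule depolymerase KIF2C by 0.88.

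Spindle and midzone proteins other than motors also fell in HOXA9_KO, 7 of 7 with a median of -0.94. NUSAP1 (ENSG00000137804.12, chromosome 15, 41332694 to 41381050, plus strand), a spindle microtubule-binding protein, lay at 68.0, 66.5 and 68.6 CPM in HOXA9_KO, 133, 127 and 141 CPM in SAFB_KO and 153, 149 and 144 CPM in NT. It lay at 89.3, 90.8, 87.2 and 82.9 CPM in MEIS1_KO and 84.6, 89.5, 86.1 and 85.1 CPM in NT_MEIS1ex. HOXA9_KO was far below both other groups, and NUSAP1 fell by 1.13 ± 0.039 there (edgeR adjusted p 7.76e-30). Another gene of the same strand shares 62.2% of the exon sequence of NUSAP1, and another shares 57.6% of that of PRC1, so reads in those stretches could have been left uncounted. HMMR and DLGAP5, which stabilise spindle microtubules, fell by 1.03 and 0.94. PRC1, which bundles the microtubules of the midzone, fell by 0.80, the spindle protein CKAP2 by 0.71, and ECT2, which starts the contractile ring, by 0.61.

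The remaining 3 members act on chromosomes or on transcription, and all 3 fell in HOXA9_KO. TOP2A (ENSG00000131747.14, chromosome 17, 40388516 to 40417950, minus strand), the topoisomerase that untangles sister chromatids, had the smallest p-value of all members. It lay at 152, 156 and 159 CPM in HOXA9_KO, 298, 289 and 288 CPM in SAFB_KO and 357, 347 and 341 CPM in NT. It lay at 287, 286, 268 and 253 CPM in MEIS1_KO and 260.4, 293, 288 and 267 CPM in NT_MEIS1ex. The 3 groups of the first experiment were well apart, with HOXA9_KO lowest, and the MEIS1 groups overlapped. TOP2A fell by 1.16 ± 0.032 in HOXA9_KO (edgeR adjusted p 7.62e-34) and by 0.26 ± 0.031 in SAFB_KO (edgeR adjusted p 2.80e-09). FOXM1, the transcription factor that activates mitotic genes, fell by 0.96 and 0.33 in these knockouts. MKI67, which coats mitotic chromosomes and is the proliferation marker Ki-67, lay at 127, 142 and 135 CPM in HOXA9_KO, 214, 217 and 203 CPM in SAFB_KO and 318, 238 and 242 CPM in NT. A single NT library stood above the other two, and MKI67 had the widest error of the members, -0.98 ± 0.12 in HOXA9_KO (edgeR adjusted p 0.000418).

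**Figure D3:**
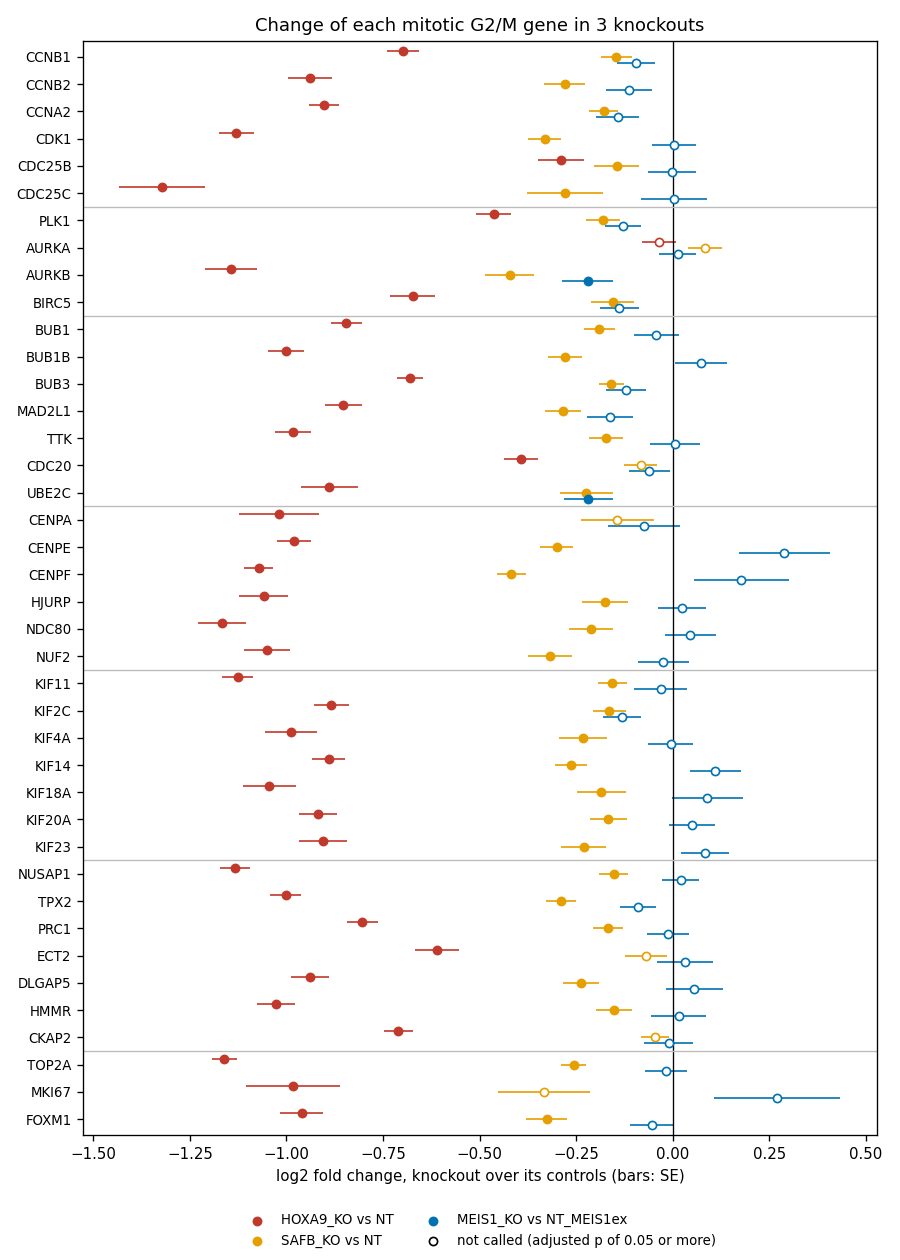
Points are log2 fold changes of each knockout over its own non-targeting libraries, bars are SE, filled points are called (edgeR adjusted p under 0.05) and open points are not; grey lines separate the roles. HOXA9_KO changes run from -1.32 to -0.03 with 4 members above -0.5, SAFB_KO changes lie between -0.42 and 0.08, and MEIS1_KO changes between -0.22 and 0.29.

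SAFB_KO cells also had lower mitotic G2/M genes than NT, by a much smaller amount. Of 40 members, 34 were called lower and none higher, where 15.3% of tested genes were called lower and 20.2% higher, and the median log2 change was -0.19, a fall of 12.2%, beside -0.02 over all genes. No member fell by as much as 0.5, as 7.77% of tested genes did. Every SAFB_KO library lay below every NT library for 35 members, which held for 22.3% of tested genes, and above for AURKA, as for 24.1%. The call of CDC25B, at -0.14 ± 0.058 (edgeR adjusted p 0.0444), was lost with RLE size factors, with DESeq2, with no filter and without any of 7 of the 9 libraries. Under the alternatives the call of 14 members changed at least once. CDC25C, BIRC5 and HJURP also lost theirs with DESeq2 and without some single libraries. CCNB1, UBE2C, KIF4A, KIF18A and HMMR lost theirs only without some single libraries. CDC20, CENPA, ECT2, CKAP2 and MKI67, not called here, were called lower with nuclear protein-coding scaling. MKI67 was also called lower with DESeq2 (-0.32, adjusted p 0.0284). AURKB, CENPF, CDK1, FOXM1 and NUF2 fell by 0.42, 0.42, 0.33, 0.33 and 0.32. By role, all 6 genes of the CDK1 switch and all 7 kinesins fell, with medians of -0.23 and -0.19, as did 6 of 7 checkpoint and APC/C genes, 5 of 6 centromere and kinetochore genes, 5 of 7 spindle proteins, 3 of 4 of the PLK1 and Aurora group and 2 of 3 chromosome and transcription genes.

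The 6 members not called in SAFB_KO were AURKA and 5 with values below 0. CENPA lay at 9.92, 9.24 and 9.93 CPM in SAFB_KO and 10.8, 11.8 and 9.36 CPM in NT. ECT2 lay at 41.6, 35.8 and 41.9 CPM in SAFB_KO and 42.0, 41.9 and 40.8 CPM in NT, and CKAP2 at 157, 156 and 159.7 CPM in SAFB_KO and 171, 161 and 156 CPM in NT. In these 3 genes the groups overlapped, and their changes were -0.14 ± 0.095, -0.07 ± 0.055 and -0.05 ± 0.037 (edgeR adjusted p 0.25, 0.351 and 0.358). CDC20 and MKI67 were lower in every SAFB_KO library than in every NT library without passing the test. CDC20 lay at 62.8, 63.6 and 61.1 CPM in SAFB_KO, a change of -0.08 ± 0.043 (edgeR adjusted p 0.133). MKI67 changed by -0.33 ± 0.12 (edgeR adjusted p 0.0745), and by -0.18 (edgeR adjusted p 4.17e-05) when the high NT replicate 1 was left out.

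HOXA9_KO and SAFB_KO, compared directly, differed in the size of the fall for nearly every member. HOXA9_KO was called lower than SAFB_KO in 39 of 40 members and higher in none, where 20.5% of tested genes were called lower and 20.1% higher, with a median log2 difference of -0.69 beside -0.02 over all genes. The difference was at least 0.5 for 36 members, as for 8.55% of tested genes, and the libraries of 39 did not overlap, as for 24.6%. The direct difference sets the libraries of these knockouts against each other and not against NT. The NT libraries were still part of the fit, through the filter, the TMM scaling and the estimate of spread behind its errors and p-values. CDC25C differed most, by -1.04 ± 0.12 (edgeR adjusted p 3.39e-10), followed by NUSAP1 at -0.98 ± 0.040, KIF11 at -0.97 ± 0.040 and NDC80 at -0.96 ± 0.063. The difference was smallest for AURKA, PLK1 and CDC20 among called members, at -0.12 ± 0.045, -0.28 ± 0.046 and -0.31 ± 0.045. AURKA passed narrowly (edgeR adjusted p 0.0309); the call was lost with RLE size factors, with DESeq2, with no filter on low counts, and without HOXA9_KO replicate 1 or 2 or SAFB_KO replicate 2 or 3. CDC25B, the member not called, lay at 24.6, 24.8 and 27.8 CPM in HOXA9_KO and 27.4, 29.1 and 28.8 CPM in SAFB_KO, which overlapped, and differed by -0.14 ± 0.061 (95% interval -0.26 to -0.03, edgeR adjusted p 0.052). It was called lower with the replicate block (edgeR adjusted p 0.0483), with nuclear protein-coding scaling (0.000454), and without NT replicate 1, HOXA9_KO replicate 3 or SAFB_KO replicate 1. By role, the median difference was largest for centromere and kinetochore genes (-0.80) and kinesins (-0.75), and smallest for the PLK1 and Aurora group (-0.40).

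MEIS1_KO cells, compared with their own controls, showed almost no change of mitotic G2/M genes. Of 40 members, 2 were called lower and none higher, where 3.84% of the 15744 tested genes were called lower and 4.97% higher, and the median log2 change was -0.01 beside 0.00 over all genes. Summed over members, levels were 3356, 3340, 3220 and 3028 CPM in MEIS1_KO and 3239, 3416, 3234 and 3134 CPM in NT_MEIS1ex, which overlapped. The 95% interval of every member lay above -0.5, the size that 36 members passed in HOXA9_KO. Every MEIS1_KO library lay below every control library for 5 members, PLK1, AURKB, BIRC5, UBE2C and TPX2, which held for 7.28% of tested genes. UBE2C lay at 32.6, 37.5, 36.7 and 33.7 CPM in MEIS1_KO and 44.5, 40.6, 39.1 and 39.2 CPM in NT_MEIS1ex, a fall of 0.22 ± 0.064 (edgeR adjusted p 0.0399). The call of AURKB was lost without any library except NT_MEIS1ex replicate 2, and the call of UBE2C without any except MEIS1_KO replicate 2. Without NT_MEIS1ex replicate 1, 4 other members were called lower, CCNA2, BUB3, MAD2L1 and KIF2C, and no more than 1 member was called without any other single library.

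CENPE and MKI67 had the highest log2 changes in MEIS1_KO, and with CENPF they had wide errors. CENPE lay at 42.1, 37.1, 36.5 and 31.2 CPM in MEIS1_KO and 31.6, 33.9, 32.1 and 23.2 CPM in NT_MEIS1ex. CENPF lay at 218, 206, 198 and 157 CPM in MEIS1_KO and 184, 189, 179 and 138 CPM in NT_MEIS1ex. MKI67 lay at 322, 297, 301 and 226 CPM in MEIS1_KO and 287, 248, 236 and 180.5 CPM in NT_MEIS1ex. In all 3 genes replicate 4 was the lowest library of both groups, and the groups overlapped. Their changes were 0.29 ± 0.12, 0.18 ± 0.12 and 0.27 ± 0.16 (edgeR adjusted p 0.164, 0.439 and 0.386). With the replicate number as a block all 3 were called higher, at 0.29, 0.18 and 0.28 (edgeR adjusted p 0.0192, 0.0422 and 0.0035), although the numbers did not pair the libraries over all genes. Without NT_MEIS1ex replicate 4 the changes were 0.18, 0.09 and 0.16, and without MEIS1_KO replicate 4 they were 0.35, 0.26 and 0.36, in neither case called.

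Across experiments, the change in HOXA9_KO or SAFB_KO was compared with that in MEIS1_KO as the difference between effects, in 1 fit of all 17 libraries. Knockout and experiment are confounded in this comparison. A difference between knockouts therefore cannot be told apart from a difference between the experiments. The HOXA9 effect was called lower than the MEIS1 effect in 39 of 40 members, where 19.7% of tested genes were lower and 24.5% higher, with a median difference of -0.91 beside -0.02 over all genes. The exception was AURKA, at -0.00 ± 0.068 (edgeR adjusted p 0.965), which was called with nuclear protein-coding scaling (-0.33, edgeR adjusted p 0.000157). CDC25B, at -0.24 ± 0.089 (edgeR adjusted p 0.0248), lost its call with DESeq2 (adjusted p 0.0518) and without NT replicate 2, HOXA9_KO replicate 1 or 2, NT_MEIS1ex replicate 3 or MEIS1_KO replicate 4. CDC25C, CENPE, MKI67 and CENPF differed most, by -1.28 ± 0.15, -1.23 ± 0.14, -1.21 ± 0.22 and -1.21 ± 0.16. The SAFB effect was called lower than the MEIS1 effect in 12 of 40 members, where 8.49% of tested genes were lower and 12.4% higher, with a median of -0.17 beside 0.00. These 12 were CDK1, BUB1B, CENPE, CENPF, NDC80, NUF2, KIF14, KIF23, TPX2, DLGAP5, TOP2A and FOXM1. NDC80 and TPX2 lost the call with RLE size factors, with no filter and without some single libraries. NUF2 lost it with no filter and without some single libraries, and KIF23, DLGAP5 and FOXM1 only in fits that left out 1 library. MKI67, at -0.60, was not called, but was with DESeq2 (adjusted p 0.0335), the replicate block and nuclear protein-coding scaling. The count was 7 without SAFB_KO replicate 2 and 35 with nuclear protein-coding scaling. MEIS1 RNA itself had a log2 change of -1.54 both in HOXA9_KO and in MEIS1_KO, with a difference between effects of 0.04 ± 0.092 (edgeR adjusted p 0.757). Across the 40 members, the HOXA9_KO and MEIS1_KO changes, which share no library, had Pearson's r of -0.169 and Spearman's rho of -0.276, as a description of genes that are not independent.

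**Figure D4:**
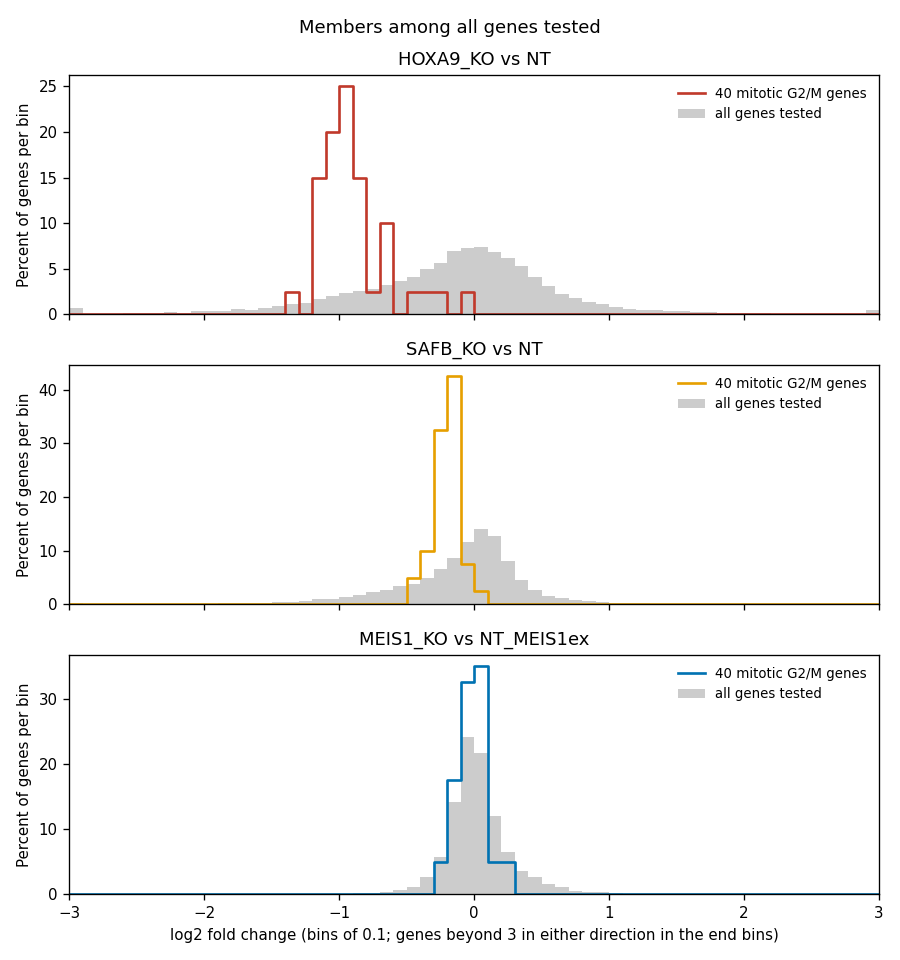
Grey bars give the percent of all tested genes in bins of 0.1 on the log2 scale, and coloured lines the same for the 40 members, in HOXA9_KO against NT (top), SAFB_KO against NT (middle) and MEIS1_KO against NT_MEIS1ex (bottom). The members stand left of the bulk of genes around -0.95 in HOXA9_KO, form a narrow peak around -0.19 in SAFB_KO and lie on the bulk in MEIS1_KO.

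The choice of scale moved all genes together and left the members' position among them. Nuclear protein-coding genes took 60.5 to 64.4% of counts in HOXA9_KO, 69.5 to 71.6% in SAFB_KO and 67.5 to 73.6% in NT, and 93.8 to 94.5% in the MEIS1 experiment. Scaled to these counts, the median of all genes shifted by -0.25 in HOXA9_KO, -0.14 in SAFB_KO and 0.03 in MEIS1_KO, and the members' medians became -1.20, -0.33 and 0.02. The shift was -0.11 for HOXA9_KO against SAFB_KO, and -0.32 and -0.17 for the HOXA9 and SAFB effects minus the MEIS1 effect. Relative to the median of all genes, the members stood at -0.88 in HOXA9_KO, -0.17 in SAFB_KO and -0.01 in MEIS1_KO under either scale. A change of scale shifts all genes of a comparison nearly alike, so this sameness was fixed in advance and is no separate check. Calls over all genes were 5207 higher and 5640 lower in HOXA9_KO, 3812 and 2886 in SAFB_KO, and 783 and 604 in MEIS1_KO with TMM. With nuclear protein-coding scaling they were 2861 higher and 9293 lower in HOXA9_KO, 1712 and 5535 in SAFB_KO, and 979 and 450 in MEIS1_KO. For HOXA9_KO against SAFB_KO, 3791 higher and 3877 lower calls became 2449 and 5845, and for the differences between effects 4618 and 3703 became 1867 and 7777 for HOXA9, and 2330 and 1600 became 612 and 3496 for SAFB.

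Per kilobase of exon, the scale on which levels of different genes can be compared, the members in NT ran from 3.75 CPM per kilobase for CDC25C to 54.1 for TOP2A, with NUSAP1 at 51.6 and CCNA2 at 43.1. In HOXA9_KO they ran from 1.51 for CDC25C to 24.8 for CDC20, with TOP2A at 24.2. Across the 40 members the HOXA9_KO change and the log2 level per kilobase in NT had Pearson's r of 0.0816 and Spearman's rho of 0.0535.

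Mitotic genes outside the 40 also fell in HOXA9_KO and SAFB_KO. Of 56 further mitotic genes, 54 fell and 1 rose in HOXA9_KO, with a median of -0.85, where 29.9% of tested genes were lower and 27.6% higher. In SAFB_KO 38 fell and 1 rose, with a median of -0.19, where 15.3% of tested genes were lower and 20.2% higher. In MEIS1_KO 3 fell and none rose, with a median of -0.03, a share near the 3.84% of tested genes that were lower. KNTC1, a kinetochore protein that recruits dynein, lay at 56.4, 56.4 and 52.7 CPM in HOXA9_KO, 102, 102 and 103 CPM in SAFB_KO and 133, 140.2 and 130.4 CPM in NT. The groups did not overlap, and KNTC1 fell by 1.29 and 0.40 in the 2 knockouts. KNL1, the kinetochore scaffold that recruits BUB1, and ASPM, a spindle pole protein, fell by 1.07 and 1.14 in HOXA9_KO, and the kinesins KIF20B and KIF15 by 0.34 and 0.45 in SAFB_KO. The genes lower in MEIS1_KO were CKS1B, a CDK-binding protein (-0.23), PKMYT1, a kinase that inhibits CDK1 (-0.28), and CDC25A, a phosphatase that activates CDKs (-0.21). MAD1L1, the checkpoint protein that holds MAD2L1 at kinetochores, was the one that rose, with 46.3, 45.3 and 44.7 CPM in HOXA9_KO, 44.5, 43.2 and 42.1 CPM in SAFB_KO and 36.1, 38.8 and 37.0 CPM in NT. Its changes of 0.29 and 0.22 were not called with nuclear protein-coding scaling (0.03 and 0.08).

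Core genes of the APC/C, the enzyme that CDC20 and UBE2C serve, had calls in both directions, in HOXA9_KO in shares near those of all tested genes. Of 15 genes, subunits and the activator FZR1, 6 fell and 5 rose in HOXA9_KO with a median of -0.13 (29.9% of tested genes lower, 27.6% higher). In SAFB_KO 3 fell and 1 rose with a median of 0.03 (15.3% lower, 20.2% higher). In MEIS1_KO the 15 values lay between -0.13 and 0.08 without a call (3.84% lower, 4.97% higher). In HOXA9_KO, ANAPC1, CDC23 and ANAPC4 fell by 0.21, 0.26 and 0.24. ANAPC7, ANAPC13, ANAPC15, ANAPC16 and CDC26 rose by 0.19, 0.24, 0.24, 0.14 and 0.31, and none of these 5 was called with nuclear protein-coding scaling, where all but CDC26 had values below 0. In SAFB_KO, ANAPC13 rose by 0.32, and CDC16, ANAPC5 and FZR1 fell by 0.20, 0.10 and 0.16.

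DNA replication genes, which act in the phase before, fell with the mitotic genes in HOXA9_KO. All 25 fell, where 29.9% of tested genes did, with a median of -0.75, among them the helicase subunit MCM7 (-0.75) and the ribonucleotide reductase subunits RRM1 (-0.81) and RRM2 (-1.02). In SAFB_KO 13 of 25 fell, where 15.3% of tested genes did, with a median of -0.14, including MCM7 (-0.25), the helicase subunit MCM5 (-0.22) and the licensing factor CDT1 (-0.41). In MEIS1_KO 4 of 25 fell and none rose, where 3.84% of tested genes fell, with a median of -0.10. CDT1 lay at 127, 140.3, 137 and 137 CPM in MEIS1_KO and 194, 167, 169 and 177 CPM in NT_MEIS1ex, with no overlap, a fall of 0.38 ± 0.054 (edgeR adjusted p 0.000235), and TYMS and CDC45 fell by 0.23 and 0.21.

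Among 24 regulators of the MuvB, E2F and RB families and their inhibitors, 13 fell and 3 rose in HOXA9_KO, with a median of -0.17, where 29.9% of tested genes were lower and 27.6% higher. In SAFB_KO 4 fell and 3 rose, with a median of 0.01, where 15.3% of tested genes were lower and 20.2% higher. MYBL2, the MuvB partner that activates mitotic genes, lay at 41.6, 44.0 and 45.1 CPM in HOXA9_KO, 70.5, 71.4 and 74.3 CPM in SAFB_KO and 70.2, 78.0 and 76.8 CPM in NT. HOXA9_KO stood apart and SAFB_KO overlapped NT, with changes of -0.78 ± 0.046 and -0.06 ± 0.044 (edgeR adjusted p 2.08e-20 and 0.345). The MuvB subunits LIN9 and LIN54 fell by 0.66 and 0.25 and the activator E2F1 by 0.63 in HOXA9_KO. E2F4, the E2F of the DREAM complex, rose by 0.44 ± 0.043 in HOXA9_KO (edgeR adjusted p 1.50e-12) and by 0.12 ± 0.043 in SAFB_KO (edgeR adjusted p 0.0269), where nuclear protein-coding scaling gave -0.02. RBL2, the pocket protein of DREAM, changed by -0.09 in HOXA9_KO and was called (edgeR adjusted p 0.0442), and RB1 changed by -0.01 and was not. With nuclear protein-coding scaling RB1 was also called in HOXA9_KO, at -0.26. In SAFB_KO LIN9 and RB1 fell by 0.17 and 0.22. MYBL2 fell by 0.17 in MEIS1_KO, the 1 regulator of 24 called lower there, a share near the 3.84% of tested genes.

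CDKN1A, the CDK inhibitor p21, rose in all 3 knockouts. It lay at 939, 866 and 901 CPM in HOXA9_KO, 465, 459 and 469.9 CPM in SAFB_KO and 211, 228 and 229 CPM in NT. It lay at 639, 623, 647 and 653 CPM in MEIS1_KO and 521, 503, 517 and 509 CPM in NT_MEIS1ex. No knockout overlapped its controls, and the order of the rises, 2.02 ± 0.034 in HOXA9_KO, 1.06 ± 0.033 in SAFB_KO and 0.32 ± 0.042 in MEIS1_KO, was the reverse of the order of the members' medians, -0.95, -0.19 and -0.01. HOXA9_KO was above SAFB_KO by 0.96 ± 0.033 (edgeR adjusted p 3.36e-29). The SAFB effect was above the MEIS1 effect by 0.75 ± 0.060 (edgeR adjusted p 3.10e-11), where knockout and experiment are confounded. Whether the 2 patterns are linked was not tested.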

How the data were processed

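RNA-seq was made from total RNA of MOLM13 cells with directional libraries after depletion of ribosomal RNA, read as 150-base pairs, per the labels' protocols. Per the submitters' processing notes the tools were Trim Galore, STAR 2.7.10a, HTSeq 1.99.2 and bedtools on hg38; annotation release and strand setting were not given in the sources used here. Files deposited by the authors hold unnormalised whole-number counts, one value per gene, in 9 libraries of the first experiment and 8 of the MEIS1 experiment. Lines that name no gene stayed out. They took 22.7 to 24.6% of each library in NT, 16.5 to 16.9% in HOXA9_KO and 17.7 to 19.5% in SAFB_KO. In the MEIS1 experiment they took 18.4 to 19.5% in MEIS1_KO and 18.2 to 19.1% in NT_MEIS1ex. The part of this difference in the results was not tested. Names and coordinates came from GENCODE 29, promoters from RefSeq GRCh38.p14, with the first window listed for each symbol.

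Counts were filtered with filterByExpr (minimum count 10, minimum total 15), scaled by TMM and tested with edgeR 4.0.16 (robust quasi-likelihood, R 4.3.3), in fits of 9, 8 and 17 libraries that kept 18876, 15744 and 18836 genes. P-values were adjusted by Benjamini-Hochberg over all tested genes. Biological coefficients of variation were 4.63%, 6.75% and 5.92%. No 2 libraries of a group agreed within sampling noise. The procedure was run on counts simulated with the spread fitted here. This covered only HOXA9_KO against NT, MEIS1_KO against NT_MEIS1ex and the HOXA9 effect minus the MEIS1 effect. No result above rests on it. Members and gene lists were chosen with earlier results of these data known. Values in every library are given for the member with the smallest HOXA9_KO p in each role and for members without a call in the common direction, and other members are named by role; PLK1 and TOP2A panels and a few further values were added to show the range. Of the other lists, the 3 smallest p-values, genes called against the rest and set regulators are named, apart from a regulator not reported here. Alternatives were RLE size factors, scaling to nuclear protein-coding counts, no filter, DESeq2 1.42.0, a replicate block, fits of only the groups compared, and leaving out each library. Replicate numbers did not pair libraries, with correlations of same-numbered deviations of -0.23 to 0.093.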

Additional observations from a re-analysis of the deposited data

Results flagged for a closer look

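In 4 of 80 sets of CPM values, 40 members in 2 groups of 4 libraries, 1 library stood apart from the other 3 by Dixon's test at 95%, which chance alone gives in about 1 in 20 sets. All 4 were in MEIS1_KO. CCNB2 was lowest in replicate 4, at 40.8 CPM, with 46.0 to 47.0 CPM in the others. KIF4A was also lowest in replicate 4, at 34.2 CPM, with 38.7 to 39.5 CPM in the others. KIF20A was highest in replicate 1, at 50.1 CPM, with 45.8 to 46.3 CPM in the others. ECT2 was highest in replicate 2, at 37.6 CPM, with 33.2 to 34.0 CPM in the others. None of these genes was called in MEIS1_KO. Groups of 3 libraries were not tested in this way.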

How the results depend on the processing

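The HOXA9_KO fall kept its direction and call for 39 members under all alternatives. Leaving out 1 library gave 39 members lower in each case, 28 to 34 in SAFB_KO and 38 to 40 for HOXA9_KO against SAFB_KO. With nuclear protein-coding scaling the members' medians were -1.20 (HOXA9_KO), -0.33 (SAFB_KO), -0.80 (HOXA9_KO against SAFB_KO), -1.24 (HOXA9 effect minus MEIS1 effect) and -0.34 (SAFB effect minus MEIS1 effect), and 0 members were called lower in MEIS1_KO and 35 for the SAFB effect minus the MEIS1 effect. Without 1 library, members lower ranged from 0 to 4 in MEIS1_KO and from 7 to 16 for the SAFB effect minus the MEIS1 effect, all genes called in MEIS1_KO from 751 to 1772 (1387 with all libraries), and the median of the HOXA9 effect minus the MEIS1 effect from -0.95 to -0.87. With no filter, 1 member, CENPE, was called higher in MEIS1_KO. The replicate numbers share only a number, with correlations of same-numbered deviations of -0.23 to 0.093; with the replicate block, 0 members were called lower and 3 higher in MEIS1_KO (CENPE, CENPF and MKI67). The cause of these shifts was not tested. All 40 members passed the filter in every fit that used one; how far depth limits their changes was not tested.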

Other observations

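Levels of the members in the non-targeting libraries differed between the experiments, which were scaled separately, so the values stand side by side with no test. Per kilobase of exon, NT_MEIS1ex ran from 2.53 CPM for CDC25C to 56.9 for CDC20, with TPX2 at 48.8, while NT had TOP2A highest at 54.1. CENPE lay at 31.6, 33.9, 32.1 and 23.2 CPM in NT_MEIS1ex and 93.1, 89.4 and 85.5 CPM in NT, and CDC20 at 119.8, 122, 105 and 118 CPM in NT_MEIS1ex and 65.1, 65.5 and 68.2 CPM in NT. MYBL2 lay at 237, 229, 216 and 232 CPM in NT_MEIS1ex and 70.2, 78.0 and 76.8 CPM in NT. The summed level of the 40 members was 3256 ± 117 CPM in NT_MEIS1ex (SD, n = 4) and 3521 ± 109.8 CPM in NT (SD, n = 3).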
